A study of Homo sapiens with 4 samples.

Results

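The genes described here encode proteins that bind the poly(A) tail of mRNAs, together with partners of the cytoplasmic ones. They were chosen by symbol, and all 8 listed symbols (PABPN1, PABPC1, PABPC4, PABPC1L, ZC3H14, PAIP1, PAIP2 and PAIP2B) were found, out of 51699 genes in the deposited table. RNA came from HEK293T cells, a line derived from human embryonic kidney and expressing SV40 large T antigen. The cells were wildtype and formaldehyde crosslinked, and 2 biological replicates were each divided into a nuclear and a cytoplasmic fraction, giving 4 ribodepleted RNA libraries. The table holds, for each gene, the authors' mean normalized count over all 4 libraries, and every level below is that mean. Its columns that set cytoplasm against nucleus are the authors' own comparison and were not used, so the fractions are not compared here.

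Poly(A)-binding proteins coat the tail that is added to the 3′ end of most mRNAs. PABPN1 stimulates poly(A) polymerase and helps to set the length of the tail. PABPC proteins act mainly on mRNAs under translation, where they contact the initiation factor eIF4G. Partner proteins tune this contact. PAIP1 is known to promote translation, whereas PAIP2 and PAIP2B compete for PABPC and restrain it.

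All 8 mRNAs were detected, and all lay above the median of the 17116 protein-coding genes with a mean above 0, which was 445.8 normalized counts. PAIP2B, at 449.1, exceeded this median by less than its own counting error, which is given below. The means spanned a 20.1-fold range, from 449.1 for PAIP2B to 9048 for PABPC1. The 8 genes together made up 0.0915% of the summed means of all genes. The 3 PABPC genes held 67.2% of the members' sum, the 2 nuclear tail-binding genes PABPN1 and ZC3H14 held 19.9%, and the 3 partners held 12.8%. PABPC1 alone accounted for 42.2%.

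**Figure D1:**
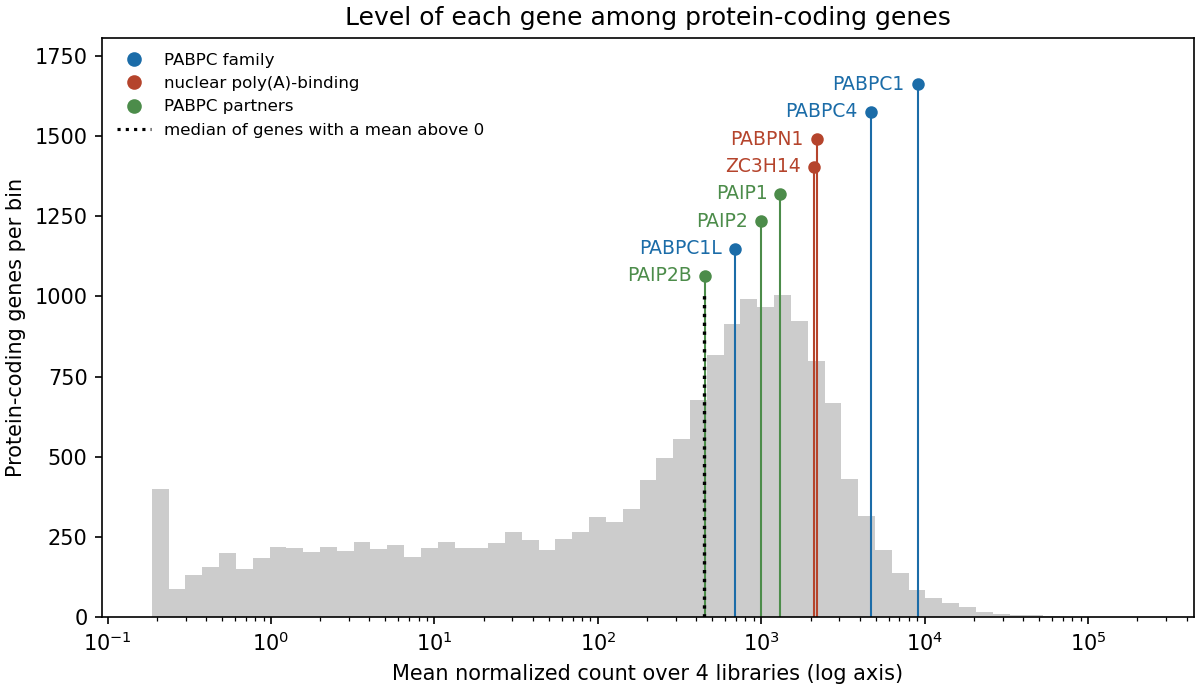
Histogram of the mean normalized count over 4 libraries (log axis) for protein-coding genes with a mean above 0, in genes per bin, with a labelled line for each of the 8 genes and a dotted line at the median of 445.8. PAIP2B sits at the median and PABPC1, at 9048, in the upper tail.

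Each mean pools 2 nuclear and 2 cytoplasmic libraries, so it also depends on how a gene's RNA was divided between the fractions and is not a level per cell. No value of a single library was used, so no spread between replicates can be given for any gene, and an order of 2 genes is an order of the means alone. Counting error could be bounded. The lowest means in the table are whole-number sums of 4 steps, each the amount that 1 count in 1 library adds, and these steps give size factors from 0.755 to 1.34. The mean of PAIP2B therefore rests on between 1355 and 2410 counts over the 4 libraries, and that of PABPC1 on between 27309 and 48530. The corresponding counting error was at most 2.72% for PAIP2B and at most 0.605% for PABPC1. These bounds cover counting error only.

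Of the cytoplasmic PABPC genes, PABPC1 and PABPC4 had the highest means of the 8, and PABPC1L was next to last. PABPC1, which encodes the major cytoplasmic poly(A)-binding protein, had a mean of 9048 normalized counts and had rank 209 among protein-coding genes, at percentile 98.8. PABPC4, a closely related protein known as inducible PABP, had a mean of 4661, at percentile 96.0. PABPC1L, known for its role in oocytes, had a mean of 690.2, at percentile 58.9. The mean of PABPC1 was thus 1.94 times that of PABPC4 and 13.1 times that of PABPC1L.

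Of the nuclear tail-binding genes, PABPN1 had a mean of 2181 normalized counts, at percentile 86.2. ZC3H14, which encodes a zinc finger protein that binds polyadenosine RNA, had a mean of 2090, at percentile 85.3. Both means were nearly equal, with a ratio of 1.04. Each rested on at least 6309 counts. These raw means do not compare the abundance of the transcripts, since the genes differ in length.

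Among the partners, PAIP1 had a mean of 1310 normalized counts, at percentile 74.5, and PAIP2 had a mean of 993.8, at percentile 67.8. PAIP2B, a paralog of PAIP2 with the same kind of activity, had a mean of 449.1, at percentile 50.1. PAIP2 was thus represented by 2.21 times as many normalized counts as PAIP2B.

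Because reads were counted over exons and introns together, the structure of each gene bears on its level. Coordinates are from GENCODE 44 on hg38. PABPN1 (ENSG00000100836, chromosome 14, 23321457 to 23326163, plus strand) was by far the most compact, with a span of 4.71 kb of which 78.3% was exonic, shorter than all but 8.68% of protein-coding genes. PABPC4 (ENSG00000090621, chromosome 1, 39560709 to 39576790, minus strand) spanned 16.1 kb. PABPC1 (ENSG00000070756, chromosome 8, 100685816 to 100722809, minus strand) spanned 37.0 kb, and PABPC1L (ENSG00000101104, chromosome 20, 44910060 to 44959035, plus strand) spanned 49.0 kb, of which 10.3% was exonic. ZC3H14 (ENSG00000100722, chromosome 14, 88562970 to 88627596, plus strand) had the longest span, 64.6 kb, and the longest exonic sequence, 21.0 kb.

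The partners lay in genes with large introns. PAIP1 (ENSG00000172239, chromosome 5, 43526267 to 43557758, minus strand) spanned 31.5 kb with 28.1 kb of intron. PAIP2 (ENSG00000120727, chromosome 5, 139341587 to 139369720, plus strand) spanned 28.1 kb with 25.0 kb of intron. PAIP2B (ENSG00000124374, chromosome 2, 71182738 to 71227103, minus strand) spanned 44.4 kb with 38.1 kb of intron. The coding parts of PAIP2 and PAIP2B were the shortest of the 8, at 381 and 369 bases.

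**Figure D2:**
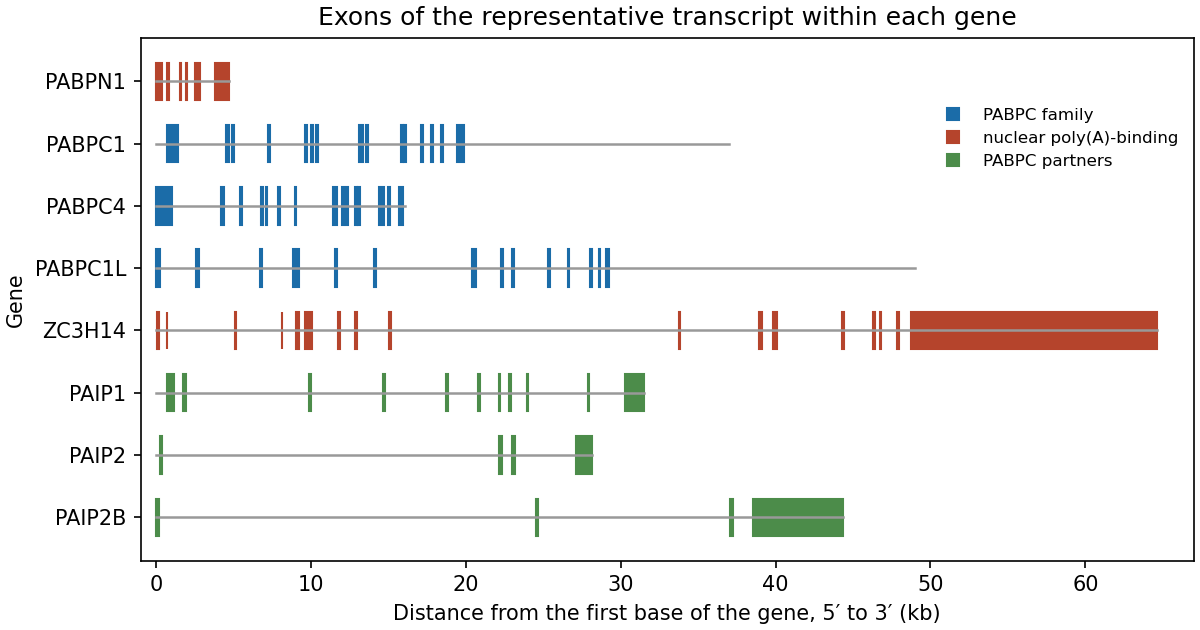
Exons (boxes) of the representative transcript of each gene, drawn to scale from the first base of the gene at 0 kb, with the line showing the gene span. PABPN1 spans 4.71 kb and ZC3H14 spans 64.6 kb, with a last exon that takes up much of its exonic length.

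Divided by the length of all annotated exons, the order of the genes changed. PABPC1 remained highest at 947.8 normalized counts per exonic kb. PABPN1 was next at 591.7, above PABPC4 at 453.7. PAIP1 followed at 386.2 per exonic kb and PAIP2 at 314.7. PABPC1L, at 136.7, was followed by ZC3H14 at 99.5 and PAIP2B at 71.3. The median over 17098 matched protein-coding genes was 82.0 normalized counts per exonic kb, so PAIP2B fell below it and the other 7 lay above it. On this scale the level of PABPN1 was 5.94 times that of ZC3H14, whereas their means were nearly equal. The ratio was 1.65 per kb of exon outside other genes, 10.5 per kb of representative transcript and 14.3 per kb of gene span.

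The place of a gene depended on the measure of length. Divided by the gene span, PABPN1 was highest at 463.4 normalized counts per kb, above PABPC4 at 289.8 and PABPC1 at 244.6, and the other 5 genes ranged from 10.1 for PAIP2B to 41.6 for PAIP1. Divided by 1 representative transcript, PABPC1 was highest at 3162 per kb, followed by PABPC4 at 1484 and PABPN1 at 1204. PAIP2B was lowest on all 4 measures of length used, and PABPC1, PABPC4 and PABPN1 were the top 3 on each. Within the top 3, no order held on all 4. Likewise, PAIP1 was 1.23 times higher than PAIP2 per exonic kb, but 0.690 times PAIP2 per kb of representative transcript.

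**Figure D3:**
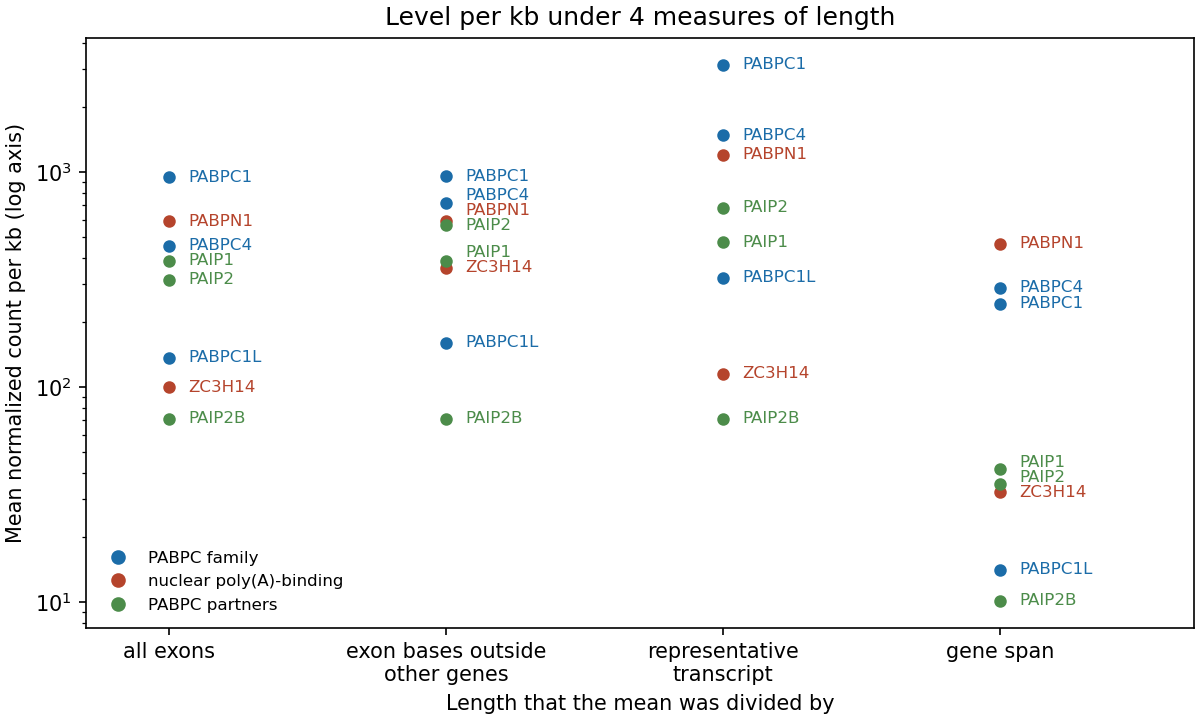
Mean normalized count per kb (log axis) of the 8 genes, with 1 column of points for each of 4 measures of length. PABPC1, PABPC4 and PABPN1 are the highest 3 in every column, and PAIP2B is the lowest.

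Other annotated genes share bases with several of these genes, and the authors removed stretches covered by more than 1 gene before counting. In GENCODE 44, PABPN1, PAIP1 and PAIP2B had no such overlap, once readthrough genes were left out. EML5, on the opposite strand, covered 72.2% of the exonic bases of ZC3H14, so that 27.8% of them were free. The antisense gene PABPC4-AS1 covered 36.8% of the exonic bases of PABPC4, and SLC23A1 and a lncRNA gene, both on the opposite strand, left 55.6% of those of PAIP2 free. TOMM34, also opposite, covered 15.1% of those of PABPC1L.

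Per kb of exon outside other genes, ZC3H14 stood at 358.4 normalized counts, 3.60 times its value over all exons. PABPC4 stood at 717.6 on this scale and PAIP2 at 565.9, so that PABPC4 lay above PABPN1 and PAIP2 above PAIP1. The authors' own annotation was made from GENCODE 34, and whether it held the same overlaps was not tested. The libraries were made with a stranded kit, and the authors do not state whether overlaps on opposite strands were removed. Overlaps were taken here without regard to strand. The shift of ZC3H14 between both exon scales was the largest of the 8 genes.

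Reads can also be shared with near-identical copies elsewhere in the genome. Each 100-nt window of the representative transcript, the length of the reads, was searched for letter by letter on both strands of hg38 and in the transcripts of other genes. PABPC1L, ZC3H14 and PAIP2 had 0 windows with an exact match elsewhere. PABPC1 had 64 of 2762 windows (2.32%), all in its coding part. Of its 2 places of match, one lay in PABPC3, an intronless relative of PABPC1 on chromosome 13. PABPC4 had 17 of 3043 windows (0.559%), and PABPN1 had 48 of 1712 (2.80%), the latter at 1 place on chromosome X inside TAF1.

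PAIP1 shared the most. Of its 2681 windows, 919 (34.3%) occurred exactly on chromosome 17, in and beside the pseudogene PAIP1P2, and 467 of these lay wholly in the coding part. PAIP1P2, named here after its values were seen, had a mean of 36.3 normalized counts against 1310 for PAIP1. The stretch below is shown because it lies where shared runs meet at a single differing base. It gives bases 995 to 1095 of the PAIP1 transcript and the matching bases of the plus strand of hg38, chr17:18650866-18650966, both 5′ to 3′. The capital marks the only one of 101 bases that differs, and it lies in the middle. A full-length read inside this stretch therefore covers that base and can tell both places apart. The shared runs that meet there extend beyond the stretch and measure 186 and 157 bases. A read lying wholly in either run fits both places.

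PAIP1 transcript: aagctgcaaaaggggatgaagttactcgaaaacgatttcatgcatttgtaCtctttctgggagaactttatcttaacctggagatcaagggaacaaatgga
Chromosome 17 copy: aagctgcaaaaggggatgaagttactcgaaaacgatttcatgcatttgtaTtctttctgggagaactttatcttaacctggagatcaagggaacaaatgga

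PAIP2B had 836 of 6201 windows (13.5%) with a match elsewhere, all reaching past the 3′ end of the coding part. They lay on the same chromosome as PAIP2B itself, between 71083257 and 71086101 of chromosome 2, outside any gene of GENCODE 44. Reads that fit several places are usually set aside or shared out by aligners. How they were treated in these libraries is not given in the sources used here, so the levels of PAIP1, PAIP2B and PAIP1P2 are uncertain. The windows treat each read alone and cover exons only, whereas the reads were paired and introns were counted too. The shares of windows are therefore not shares of reads.

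The remaining genes of the family that were listed were at or close to the limit of detection. None of those with a symbol starting with PABPC or PABPN, other than the 4 described above, had a mean over 50. Of 6 further family members looked up, 5 were listed. PABPC4L was not, so no level can be given for it. PABPC5, PABPC1L2A and PABPC1L2B were listed at 0, so none of the 4 libraries had a count for them. An observed count of 0 is still compatible with an expected count of up to 3. PABPN1L, a relative of PABPN1, had 1 count in 1 library.

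Whole counts could be read from these low means. PABPC3 had 29 counts in all, with 6, 7, 9 and 7 in the 4 libraries in order of falling size factor. Of 14 pseudogenes of PABPC1 and PABPN1, 9 were listed at 0, and the highest, PABPC1P4, had 11 counts, with 4, 2, 3 and 2 in the same order. PABPC3 and the PABPC1 pseudogenes summed to 11.3 normalized counts, 0.124% of PABPC1. The readthrough gene BCL2L2-PABPN1, which joins PABPN1 to its upstream neighbour, had 31 counts, with 14, 10, 1 and 6 in the same order. PABPN1 had at least 6583. The authors removed transcripts tagged as readthrough from their annotation, so that reads could be assigned to the individual genes. The 31 counts therefore need not reflect the amount of readthrough RNA. Libraries are not assigned to a fraction here, so these counts are given as values only.

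The 8 genes were set beside 2 lists of genes chosen as partners of their products. The first list held 19 genes chosen as partners of cytoplasmic PABPC, such as eIF4G, eIF4B and the translation termination factor GSPT1. It also held the deadenylase subunits PAN2 and PAN3, and LARP and TNRC6 proteins. Whether each product binds PABPC was not checked, that of EIF4G2 included. All 19 had a mean over 50, as had 12138 of the 17116 protein-coding genes with a mean above 0. The median of the 19 was 269.4 normalized counts per exonic kb. The list ran from 43.9 for GSPT2 to 3645 for EIF4B. PABPC1 was exceeded per exonic kb by 4 of the 19 genes, which were EIF4B, EIF4G1 at 1576, EIF4G3 at 1010 and EIF4G2 at 980.0. PABPC1L was exceeded by 17 of 19 and PAIP2B by 18 of 19.

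The second list held 17 nuclear factors, among them poly(A) polymerase PAPOLA, subunits of the cleavage and polyadenylation complex, the cap-binding proteins, THO subunits, and MTREX and ZFC3H1 of nuclear RNA decay. All 17 had a mean over 50, as did most protein-coding genes with a mean above 0. Per exonic kb, the 17 had a median of 253.4 normalized counts and ranged from 88.1 for THOC1 to 525.2 for MTREX. PABPN1 and PABPC1, at 591.7 and 947.8, lay above all 17, and PABPC4 was exceeded by MTREX alone. ZC3H14 was exceeded by 16 of 17 on this scale. Per kb of exon outside other genes, a count added after the data were seen, it was exceeded by 7 of the 16 genes with such bases and PABPN1 by 1, MTREX at 593.1 against 591.7. CPSF4, the gene left out, had no exonic base of its own in GENCODE 44 but a mean of 1270 normalized counts. That scale therefore cannot be that of the authors' counting for every gene. In the first list, EIF4B stood at 83860 on that scale, against 3645 per exonic kb. PAPOLA, the enzyme that PABPN1 stimulates, stood at 253.4 per exonic kb, the middle value of its list.

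**Figure D4:**
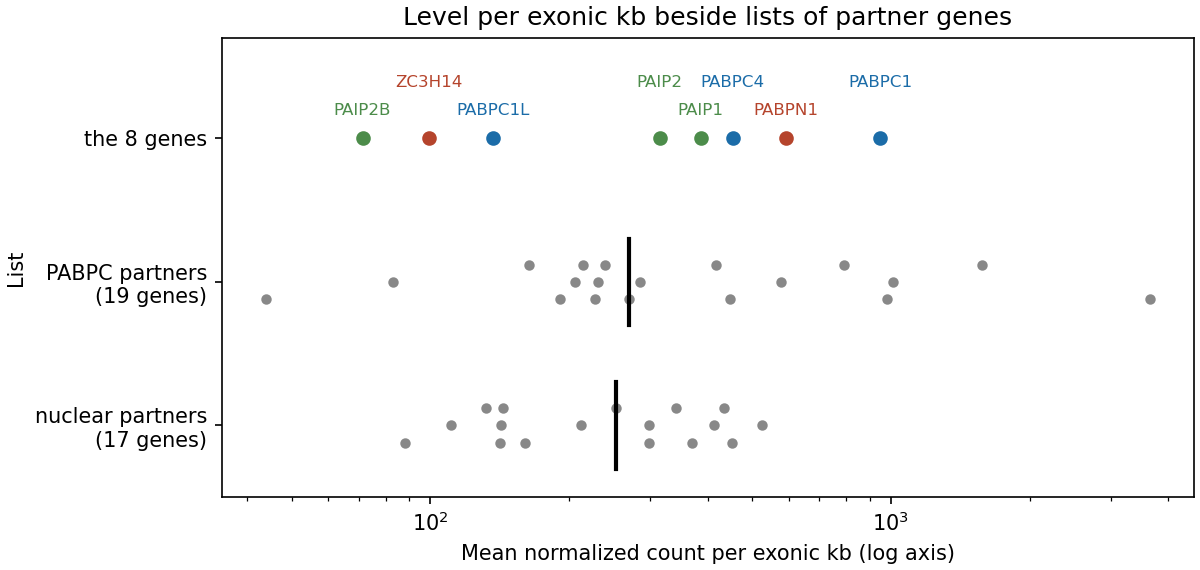
Mean normalized count per exonic kb (log axis) of the 8 genes in the top row, and of the 19 PABPC partners and 17 nuclear partners in the rows below, with 1 point per gene and a bar at the list's median. The medians are 269.4 and 253.4, and PABPN1 at 591.7 lies to the right of every nuclear partner.

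The identity of the cells was checked against genes known to be active in HEK293-type lines. LIN28B had a mean of 3376 normalized counts, IGF2BP1 of 9535, NEFM of 16264 and PAX2 of 63.1. Markers of other cell types were at most 1.82, for PTPRC, ALB, HBB, KRT5 and MYH7. As RNA was taken from many cells at once, fewer cells with an mRNA and less mRNA per cell cannot be told apart.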

How the data were processed

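RNA of nuclear and cytoplasmic fractions of HEK293T cells was sequenced by the authors in 4 libraries, each from 400 ng RNA, with paired reads of 100 nt. They aligned reads to hg38 with STAR and counted them over exons and introns with featureCounts 2.0.2 (minimum overlap 20) on an annotation made from GENCODE 34. The only deposited signal used is the authors' DESeq2 mean of normalized counts over all libraries. The deposited fold changes, standard errors, test statistics and p-values are the authors' own comparison and were not used. The intended edgeR test needs counts per library and was not run.

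Of 51740 rows, 41 repeated a gene and were dropped, keeping the highest mean. Steps of 1 count were found from the lowest means. This step was tested on simulated data. Lengths came from GENCODE 44, which matched 99.9% of protein-coding genes with a mean above 0. The representative transcript is the MANE Select one. All 8 genes were named by rule, as were further PABPC and PABPN symbols. Python 3.11.15 and pandas 2.3.3 were used. The members and lists were chosen with earlier results of these data known.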

Additional observations from a re-analysis of the deposited data

How the results depend on the processing

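No paired analysis was possible because the values used are means over all 4 libraries. For the same reason the fits with DESeq2, other normalizations, no count filter, a replicate block and each library left out were not run, and whether 1 library decides a level is not known. The highest level per kb was 13.3 times the lowest over all exons and 13.4 times over exon bases outside other genes. It was 45.8 times with the gene span and 44.4 times with the representative transcript. Gene span lowered the level per kb of all 8 genes, and the representative transcript raised 7 and left PAIP2B as it was. The median percentile of the 8 genes was 79.9 among protein-coding genes with a mean above 0, 89.2 among all genes with a mean above 0 and 71.7 among protein-coding genes with a mean over 50. In the last set PAIP2B and PABPC1L fell below the middle, at 29.6 and 42.1. The members' share of the summed means was 0.109% of protein-coding genes and 0.107% of all genes without the 10 highest. With exon bases outside other genes, an alternative chosen after seeing the data, ZC3H14 was exceeded by 7 nuclear partners in place of 16 and by 8 PABPC partners in place of 17, and PAIP2 by 1 nuclear partner in place of 6. PABPN1 was exceeded by 1 nuclear partner in place of 0 and PABPC4 by 0 in place of 1. CPSF4 drops out on that scale, which leaves 16 of the 17 nuclear partners. These changes follow from the lengths and genes each setting uses. Counting depth limits PAIP2B most, and the absence of values per library limits every order given.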
